A study of Mus musculus with 9 samples.

Results

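The loci described here are 861 transcribed loci of mouse chromosomes 8 and 14 in induced pluripotent stem cells (iPSC), out of 54913 loci with a value in every library. They were chosen by measured values. A locus was taken when it stood in a block of the deposited table that holds loci with a strand and when its mean over the 6 iPSC libraries was at least 5 FPKM (fragments per kilobase of transcript, scaled to the mapped fragments of the library). Chromosome 8 gave 526 such loci of 868 with a strand and 2897 in all, and chromosome 14 gave 335 of 569 with a strand and 2132 in all. The 2 chromosomes and the libraries that shift on them were also picked from earlier results of these data, so the shifts are given as a description, with no test. Loci just inside the threshold had means of 5.04 and 5.06 FPKM on chromosome 8 and 5.01 and 5.05 on chromosome 14, and loci just outside it had 4.97 and 4.94, and 4.96 and 4.96. By their coordinates in the GRCm38 build, 400 of the chromosome 8 loci carried the name of one of 394 genes, and 258 of the chromosome 14 loci that of one of 256 genes. On chromosome 8, 252 members shared their interval with another locus of the table, as did 159 on chromosome 14, and the reads of such loci may have been divided between them.

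RNA-seq was performed on 9 libraries, 3 each of SSCiPSC, fiPSC and SSC. SSC were spermatogonial stem cells at passage 0, enriched for the surface marker Gfra1 from testes of pups on postnatal day 6. SSCiPSC were iPSC lines from such cells, and fiPSC were iPSC lines from fetal fibroblasts of single male fetuses at mid-gestation. All 9 libraries, the SSC included, came from mice with the same alleles, Gt(ROSA)26Sortm1(rtTA*M2)Jae and Col1a1tm3(tetO-Pou5f1,-Sox2,-Klf4,-Myc)Jae/J, in which doxycycline switches on the reprogramming factors through a transactivator made from the Rosa26 locus. The labels give passages 10 to 11 for the iPSC and a medium with LIF and doxycycline, whereas the study's methods give later passages and doxycycline withdrawn before. Each iPSC line was grown from picked colonies, on feeder cells, and the iPSC were purified for SSEA1 before RNA extraction, so each library stands for the cells of a clonal line. The labels do not say which line a library came from or whether lines of a group share a donor, so the spread between libraries may hold differences between clones as well as technical ones. The depth, read from the step that 1 fragment makes in the FPKM of a locus of known length and given in units of 1000000 fragments, was about 15.7, 13.6 and 14.9 in SSCiPSC replicates 1, 2 and 3, and 13.3, 17.5 and 15.4 in fiPSC. SSC were shallower, at 1.76, 4.59 and 1.38, and 21, 11 and 27 members were listed at 0 there, against at most 1 in any iPSC library.

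Mouse pluripotent stem cells are known for gaining and losing whole chromosomes in culture, and gains of chromosomes 8 and 14 are among the well-known changes of such lines. In a cell with an extra copy of a chromosome, most genes on it are transcribed in rough proportion to the number of copies, while some are held nearer to their usual level by their own regulation. A whole-chromosome shift in a bulk RNA library therefore appears as a small displacement of many genes together rather than as a large change of a few. DNA content was not measured in these libraries. For scale, 3 copies against 2 is a ratio of 1.5, or 0.585 on the log2 scale. In bulk RNA fewer cells of a kind and less RNA per cell cannot be told apart.

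The promoters of the genes with the lowest and the highest slope on each chromosome, the measure defined further on, are shown because they mark the ends of the range among named genes with a mean of at least 20 FPKM in iPSC and no overlapping named member. Below that level Stox2, at a mean of 7.79 FPKM on chromosome 8, had a lower slope of -2.68 than Apela. They were chosen among the genes picked by the fixed rule for the 5 lowest and 5 highest slopes that have an entry in the RefSeq promoter table (GRCm38.p6), which held 280 of the 394 genes of chromosome 8 and 189 of the 256 of chromosome 14. Each sequence has 250 bases before the transcription start and 50 after it, written 5′ to 3′ on the strand of the gene. Capitals mark CpG dinucleotides in Apela, Enox1 and Clybl. In Mt1, which encodes a metallothionein, a small protein that binds zinc and copper, capitals mark the letters TGCACNC or TGCGCNC, the core of the metal response element, searched on both strands with overlaps allowed.
Apela, chr8:65037287-65037586, minus strand, lowest slope of chromosome 8: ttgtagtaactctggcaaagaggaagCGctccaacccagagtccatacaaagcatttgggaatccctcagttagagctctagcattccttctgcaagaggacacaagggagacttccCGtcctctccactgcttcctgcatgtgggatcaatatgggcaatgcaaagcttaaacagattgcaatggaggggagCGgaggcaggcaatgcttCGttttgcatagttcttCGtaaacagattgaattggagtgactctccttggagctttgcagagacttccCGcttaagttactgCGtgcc
Mt1, chr8:94178839-94179138, plus strand, highest slope of chromosome 8: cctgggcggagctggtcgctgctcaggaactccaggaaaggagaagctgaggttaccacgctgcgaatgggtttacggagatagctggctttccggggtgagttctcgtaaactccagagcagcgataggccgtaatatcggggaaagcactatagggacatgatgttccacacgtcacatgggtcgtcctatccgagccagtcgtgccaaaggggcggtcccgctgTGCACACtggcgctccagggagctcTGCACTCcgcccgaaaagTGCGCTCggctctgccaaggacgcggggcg
Enox1, chr14:77156513-77156812, plus strand, lowest slope of chromosome 14: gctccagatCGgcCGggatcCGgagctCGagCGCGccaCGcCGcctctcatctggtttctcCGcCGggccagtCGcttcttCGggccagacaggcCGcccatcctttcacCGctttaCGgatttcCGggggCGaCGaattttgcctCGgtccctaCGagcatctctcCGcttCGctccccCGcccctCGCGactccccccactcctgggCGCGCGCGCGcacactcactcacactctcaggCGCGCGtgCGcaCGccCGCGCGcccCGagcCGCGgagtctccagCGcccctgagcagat
Clybl, chr14:122181444-122181743, plus strand, highest slope of chromosome 14: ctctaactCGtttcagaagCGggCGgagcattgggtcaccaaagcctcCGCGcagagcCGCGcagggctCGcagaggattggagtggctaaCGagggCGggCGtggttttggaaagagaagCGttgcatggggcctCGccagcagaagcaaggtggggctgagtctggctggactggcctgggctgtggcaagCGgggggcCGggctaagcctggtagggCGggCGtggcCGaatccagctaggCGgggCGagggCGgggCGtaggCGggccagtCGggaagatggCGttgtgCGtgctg
Apela had 7 CpG, Mt1 24, Enox1 42 and Clybl 26, beside a median of 7 over the 32851 promoters of the table. Each end of the range is shown by 1 promoter per chromosome, and nothing is read from their CpG content. The metal response core was found 3 times in Mt1 and also 3 times in Enox1, at the other end of the range, and 0 times in Apela and Clybl. At least 1 core was present in 25.7% of the 32851 promoters of the table, and 3 or more in 1.97%. Over the matched genes of chromosome 8 the median was 23 CpG, with 18.5 in the 20 promoters of the class with slopes of 0 or less and 24 in the 140 of the class near 1. On chromosome 14 the medians of the same classes were 18 CpG in 18 promoters and 25 in 98, beside 23 over all 189.

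The iPSC libraries had the markers of their label. The iPSC list of 10 genes, of which 7 had a named locus, summed to 2144, 2351 and 2077 FPKM in SSCiPSC, 1835, 1756 and 1961 in fiPSC, and 32.8, 24.1 and 15.5 in SSC. Pou5f1, the central pluripotency factor and a transgene in these mice, was the most abundant at 579 to 877 FPKM in iPSC, and Nanog stood at 270.2 to 483. SSC had Gfra1 at 23.9 to 37.7 FPKM, Ret, its co-receptor, at 40.3 to 52.8 and Zbtb16, a factor of undifferentiated spermatogonia, at 51.9 to 77.4, while all 3 were below 1 FPKM in every iPSC library. Dazl and Ddx4, germ cell genes, had 174 to 263 and 50.7 to 80.7 FPKM in SSC and were also present in iPSC, at 15.3 to 42.3 and 7.42 to 15.4. Sall4, which spermatogonia and pluripotent cells share, went the other way, with 25.9 to 45.9 FPKM in SSC and 59.1 to 151 in iPSC. These 6 genes were chosen after the values were seen. Of the differentiated progeny list 7 of 10 genes had a locus, and they summed to 7.13 to 12.8 FPKM in iPSC, with Nes, a neural progenitor filament, as the most abundant and Afp at 0 in all 6 libraries. The fibroblast or feeder list, 10 of 12 genes with a locus, summed to 151 to 243 FPKM in iPSC, and Fn1, which pluripotent cells also express, was its most abundant gene at 118 to 195. Of the 10 genes, 8 were lowest in fiPSC replicate 2 among the iPSC libraries, the exceptions being Fn1, lowest in SSCiPSC replicate 1, and Loxl1, lowest in fiPSC replicate 3. In fiPSC replicate 2 Col3a1 stood at 2.93 FPKM against 6.61 to 14.1 in the other 5 iPSC libraries and Dcn at 1.68 against 2.24 to 6.88. That library is also one that shifts on both chromosomes, and the part of feeder RNA in the result was not tested.

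One library stood apart from its label in another way. The 10 loci with a strand on the Y chromosome summed to 0.395 FPKM in SSCiPSC replicate 2, with 6 of them at 0, against 109.6 to 149.8 in the other 5 iPSC libraries and 111.9 to 129.9 in SSC. Eif2s3y, which encodes a translation initiation factor subunit, was at 0.0741 FPKM there and at 37.3 or more in the other iPSC. On the X chromosome the median log2 deviation of this library was -0.10, beside 0.09 in SSCiPSC replicate 1 and -0.04 to 0.04 in the others. The part of this in the chromosome 8 and 14 values was not tested. Class counts and group counts without this library are given beside those that use it.

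The question put to the members was how far the levels of a whole chromosome differ between libraries of one group. On log2(FPKM + 1), each locus was set against its mean over the 6 iPSC libraries, each library was centred on the loci of the 17 other autosomes, and the median was taken over the members. The centring took up library medians of 0.12 in SSCiPSC replicate 2 and -0.08 in fiPSC replicate 2, with the other 4 between -0.04 and 0.02, so a raw FPKM value of these 2 libraries reads slightly high and slightly low.

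Chromosome 14 was high in SSCiPSC replicate 1, with a median deviation of 0.26, and in fiPSC replicate 2, with 0.20. It was -0.18 in SSCiPSC replicate 2, -0.09 in SSCiPSC replicate 3, -0.04 in fiPSC replicate 1 and -0.14 in fiPSC replicate 3. All 6 values lay outside the range of the 17 other autosomes in their library, which was -0.03 to 0.09 in SSCiPSC replicate 1 and -0.03 to 0.01 in fiPSC replicate 2. The deviations of a locus cancel over the 6 libraries, so high libraries lower the values of the others. A value just outside the range, such as -0.04 in fiPSC replicate 1 against a lowest of -0.03, is therefore not by itself a shift of that library. Chromosome 8 was high in fiPSC replicate 2 alone among the larger shifts, with 0.20, and low in SSCiPSC replicates 1 and 2, with -0.12 and -0.22. It was 0.04 in SSCiPSC replicate 3, 0.08 in fiPSC replicate 1 and 0.02 in fiPSC replicate 3, and of these fiPSC replicate 1 was outside the other autosomes (-0.03 to 0.02). SSCiPSC replicate 1 was thus high on one chromosome and low on the other, SSCiPSC replicate 2 low on both, and fiPSC replicate 2 high on both.

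**Figure D1:**
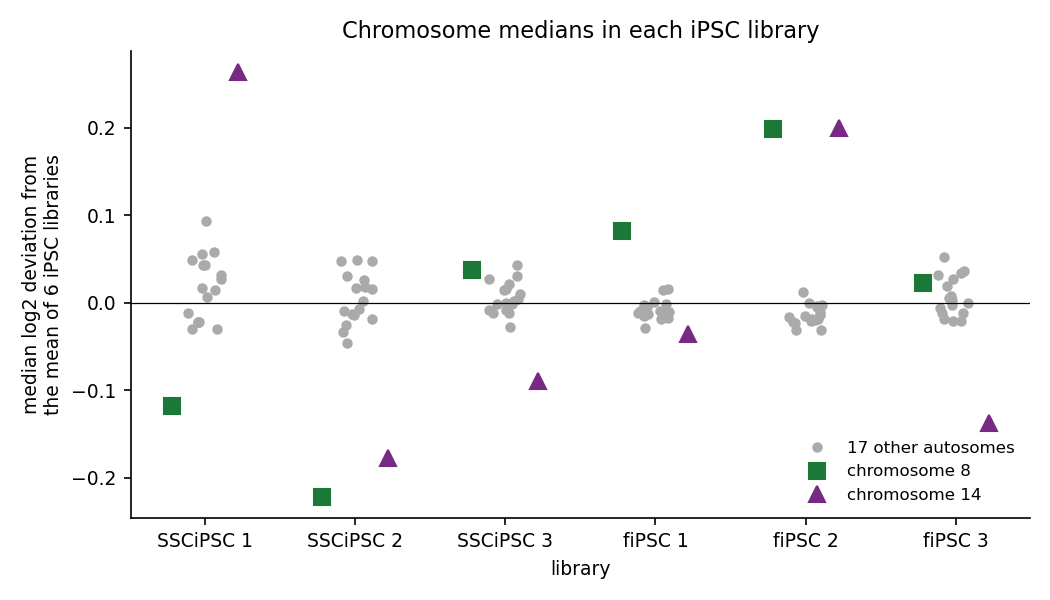
Median log2 deviation of each chromosome (vertical axis) from the mean of the 6 iPSC libraries, for each library (horizontal axis). Grey points are the medians of the 17 other autosomes, squares are chromosome 8 and triangles are chromosome 14. Chromosome 14 stands at 0.26 in SSCiPSC 1 and 0.20 in fiPSC 2, and chromosome 8 at -0.22 in SSCiPSC 2 and 0.20 in fiPSC 2, all beyond the grey points.

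Within the SSCiPSC group, chromosome 14 was 1.36-fold higher in replicate 1 than in replicate 2, a median log2 difference of 0.44 with 82.7% of members above 0, and 1.26-fold higher than in replicate 3 (0.33). The other autosomes ranged from -0.09 to 0.13 and from -0.05 to 0.04 in these 2 pairs. Chromosome 8 differed by 0.08 between replicates 1 and 2, which lay within that range, and was lower in both than in replicate 3, by -0.17 for replicate 1 and -0.28 for replicate 2. Within fiPSC, replicate 2 was above replicate 3 by 0.37 on chromosome 14 (1.29-fold, 88.7% of members above 0) and by 0.21 on chromosome 8 (1.15-fold, 76.6%), where the other autosomes ranged from -0.04 to 0.05. Between fiPSC replicates 1 and 3 the differences were 0.08 on chromosome 8 and 0.10 on chromosome 14, small but beyond the other autosomes, which reached 0.04. The SSC pairs were not measured on the members. They used 510 loci with a strand on chromosome 8 and 333 on chromosome 14, chosen by the 5 FPKM threshold applied to SSC instead. On those loci the 3 pairs gave -0.01 to 0.05 on chromosome 8 and -0.02 to -0.0013 on chromosome 14. All lay within the other autosomes except 0.05 against a highest of 0.04, between replicates 2 and 3 on chromosome 8. Values of the members for the SSC pairs are not given.

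The shift extended along the whole of each chromosome rather than over a segment. In 9 windows of 15 Mb on each chromosome, fiPSC replicate 2 was above 0 in 9 of 9 on both, with window medians from 0.18 to 0.29 on chromosome 8 and from 0.10 to 0.24 on chromosome 14. SSCiPSC replicate 1 was above 0 in 9 of 9 windows of chromosome 14, from 0.14 to 0.32, and SSCiPSC replicate 2 was below 0 in 9 of 9 on both chromosomes. The less even case was SSCiPSC replicate 1 on chromosome 8, where 1 of 9 windows was above 0 and the medians ran from -0.23 to 0.03. Loci that the rule left out moved the same way. The 396 loci of chromosome 8 without a strand had medians of -0.12, -0.08 and 0.15 in SSCiPSC replicates 1 and 2 and fiPSC replicate 2, and the 272 of chromosome 14 had 0.17, -0.07 and 0.16. The 106 loci of chromosome 14 with a strand and 1 to 5 FPKM gave 0.16, -0.13 and 0.10.

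**Figure D2:**
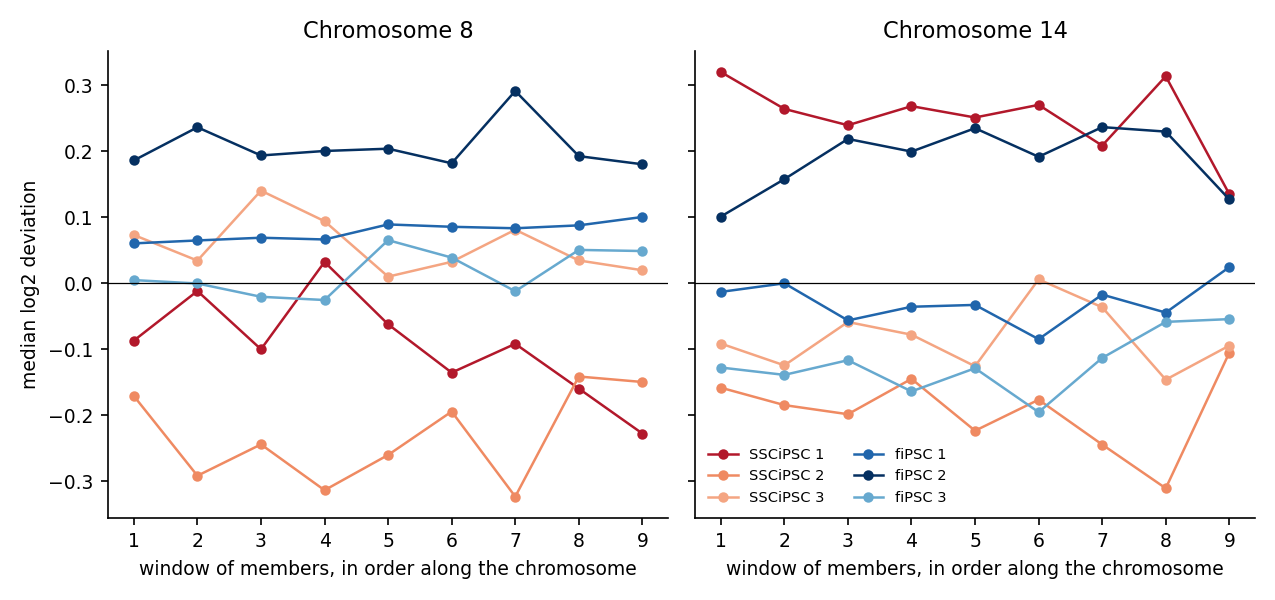
Median log2 deviation of the members (vertical axis) in 9 successive windows of 15 Mb along chromosomes 8 and 14 (horizontal axis, in order), 1 line per iPSC library. The line of fiPSC 2 stays above 0 and that of SSCiPSC 2 below 0 in every window of both chromosomes, and SSCiPSC 1 is above 0 throughout chromosome 14.

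To ask which single genes go with their chromosome, the 6 deviations of each locus were fitted by least squares on the 6 chromosome medians. A slope of 1 is a locus that moves, on balance over the 6 libraries, as much as its chromosome does, and a slope of 0 one that does not. The slope does not say how closely a locus tracks its chromosome in each library, and closeness of fit was not measured. The chromosome 8 profile is lowest in SSCiPSC replicates 1 and 2 and highest in fiPSC replicate 2. A difference between the groups thus also enters a slope there. Loci were called following at slopes from 0.5 to 1.5, above at more than 1.5, partial between 0 and 0.5, and escaping at 0 or less. These words are used here for the slope only. The members make up the profile they are compared with, so their slopes are a description. Their median is near 1 largely by this construction. That of the other autosomes is near 0 for a like reason, since each library was centred on those loci.

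On chromosome 8 the median slope was 0.97, with quartiles at 0.53 and 1.58. Of the 526 members, 258 followed (49.0%), 141 were above, 82 were partial and 45 escaped (8.56%). On chromosome 14 the median was 1.03, with quartiles at 0.45 and 1.49, and of 335 members 165 followed (49.3%), 82 were above, 50 were partial and 38 escaped (11.3%). The 7886 loci of the other autosomes, measured on the same profiles, had medians of -0.05 and -0.01, and 18.7% of them fell in the following class and 53.1% in the escaping class on the chromosome 8 profile, with 20.2% and 50.5% on that of chromosome 14. Slopes of single loci spread widely around 0 on chromosomes that do not shift, so a single gene can fall in a class without a shift of its chromosome. Among named genes, with 1 locus each, 24 of 394 on chromosome 8 and 25 of 256 on chromosome 14 escaped. With each library left out in turn, 5 of the 24 and 13 of the 25 had a slope of 0 or less every time, and 183 of the 197 following genes of chromosome 8 and 127 of the 130 of chromosome 14 kept a slope above 0. By the strict measure, 69 of the 197 and 59 of the 130 stayed in the following class every time. Of the 96 genes picked by the naming rule, 17 had a slope whose sign turned when a library was left out. Without SSCiPSC replicate 1, 208 members of chromosome 8 followed and 74 escaped, and 145 and 42 did so on chromosome 14. Without SSCiPSC replicate 2, 250 members of chromosome 8 followed and 63 escaped, and 176 and 33 did so on chromosome 14.

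**Figure D3:**
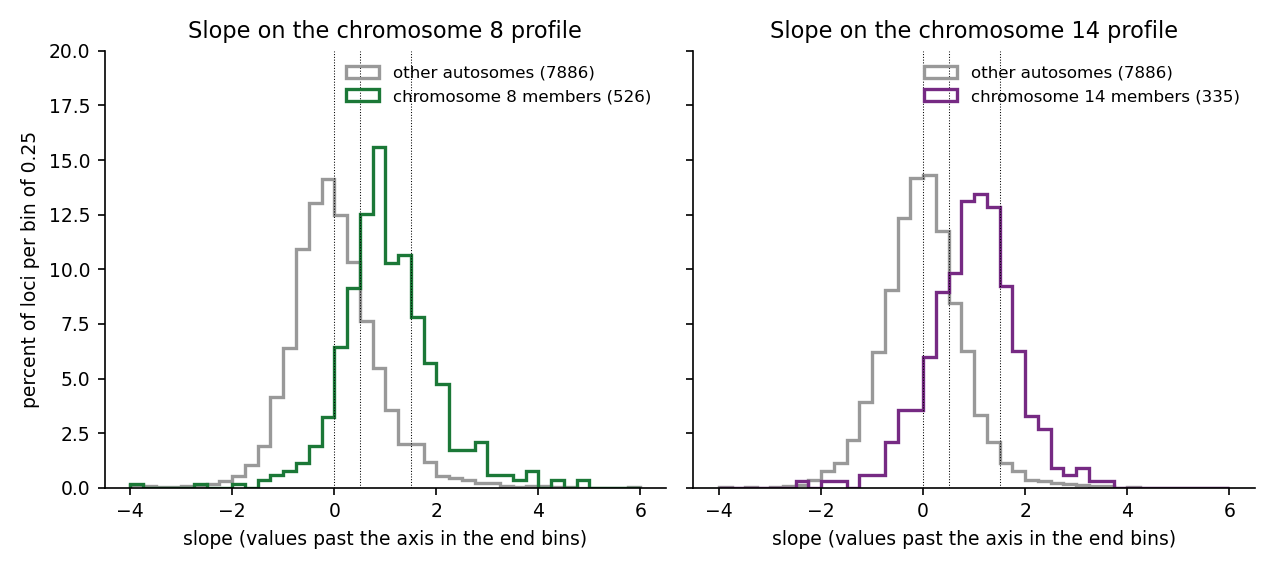
Percent of loci (vertical axis) by slope on the chromosome profile (horizontal axis, bins of 0.25) for the members and for the loci of the other autosomes, with dotted lines at 0, 0.5 and 1.5. The members centre near 1, with medians of 0.97 and 1.03, and the other autosomes near 0, and both centres are largely set by the method.

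Slopes were somewhat higher at low levels. Among the 132 members of chromosome 8 with the lowest mean FPKM the median slope was 1.24, and among the 132 with the highest it was 0.79. The 84 lowest and 84 highest of chromosome 14 had 1.13 and 0.90. The share of escaping loci was 15.2% in the low set and 8.33% in the high set of chromosome 8, and on chromosome 14 the order was the other way, with 4.76% and 17.9%. The most abundant named genes were spread over the classes. Calr, a calcium-binding chaperone of the endoplasmic reticulum, Cox4i1, a subunit of cytochrome c oxidase, and Tomm20, a mitochondrial import receptor, led chromosome 8 with slopes of 0.71, 0.94 and 1.71, though that of Calr was -0.24 without SSCiPSC replicate 2 and 1.14 without SSCiPSC replicate 1. Psmc6, a proteasome ATPase, Hnrnpc, an RNA-binding protein, and Tkt, the transketolase of the pentose phosphate pathway, led chromosome 14 with 1.57, 0.48 and 0.98, and without SSCiPSC replicate 1 Psmc6 had 1.02 and Hnrnpc 0.26. Tkt had 343, 276 and 280.3 FPKM in SSCiPSC, 271, 325 and 270.1 in fiPSC and 25.2, 21.95 and 24.7 in SSC. In iPSC it was highest in SSCiPSC replicate 1 and fiPSC replicate 2, the libraries with high chromosome 14.

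The pluripotency list, with the chromatin factors of the pluripotent state, had 9 members of 10 listed genes on chromosome 8, of which 7 followed, 1 was above, 1 was partial and 0 escaped, with a median slope of 0.99. Klf2, a naive pluripotency factor, had 58.2, 83.4 and 104 FPKM in SSCiPSC, 75.5, 99.9 and 82.5 in fiPSC and 9.75, 6.41 and 10.2 in SSC, with a slope of 1.36. It was lowest in SSCiPSC replicate 1, and the iPSC groups overlapped. Cdh1, the E-cadherin that holds pluripotent colonies together, had 88.6, 132 and 141 FPKM in SSCiPSC and 156, 149 and 141 in fiPSC, a slope at the upper edge of the following class. Zfp42, known as Rex1 and used as a marker of the naive state, had 72.8, 62.0 and 71.1 FPKM in SSCiPSC and 59.9, 77.3 and 61.0 in fiPSC, with SSC at 0.413, 1.73 and 1.05. It was highest in fiPSC replicate 2, its slope was 0.70, and its interval is shared with another locus. Triml2 had the steepest slope of this list, 2.72, with 31.8 FPKM in SSCiPSC replicate 2 and 77.1 in fiPSC replicate 2 and 49.1 to 54.8 in the other 4 iPSC libraries. Sall1, a zinc finger factor, Ash2l, a subunit of the complexes that methylate histone H3 lysine 4, and Kat6a, a histone acetyltransferase, had slopes of 0.99, 0.99 and 0.93. Ctcf, which binds chromatin boundaries, and Smarca5, a nucleosome remodeller, stood lower at 0.53 and 0.43. Single libraries moved many of these slopes. Without SSCiPSC replicate 2 the slope was 2.40 for Klf2, 2.57 for Cdh1, 1.755 for Triml2, 1.79 for Sall1, 1.455 for Kat6a, 1.001 for Ctcf, 0.45 for Ash2l, 0.36 for Zfp42 and -0.09 for Smarca5. Without SSCiPSC replicate 1 it was 0.90 for Klf2, 0.93 for Cdh1, 0.56 for Sall1 and 0.29 for Ctcf, and without fiPSC replicate 2 it was 0.23 for Zfp42 and 0.72 for Smarca5, so the class of most of these genes is not settled by 6 libraries.

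On chromosome 14 the same list had 6 members of 8, of which 3 followed, 1 was above and 2 escaped, with a median of 0.72. Klf5, a pluripotency factor also used by the early embryo, escaped with a slope of -0.95. It had 54.3, 89.1 and 78.6 FPKM in SSCiPSC, 48.5, 46.4 and 49.4 in fiPSC and 19.1, 18.5 and 16.3 in SSC. SSCiPSC replicate 1, the library with the highest chromosome 14, was the lowest of its group for Klf5. Within fiPSC the centred log2 differences were 0.013 for replicate 1 minus 2 and -0.0094 for replicate 2 minus 3, so Klf5 was level there. The SSCiPSC values lay above the fiPSC values without overlap, though the test between the groups was not passed (log2 fold change -0.58 for fiPSC against SSCiPSC, standard error 0.18, limma adjusted p = 0.32). The slope of Klf5 was -1.43 without SSCiPSC replicate 1 and -0.46 without SSCiPSC replicate 2. Chd8, a chromatin remodeller, had a slope of -0.11, and it was 0.50 without SSCiPSC replicate 1. Prmt5, an arginine methyltransferase, and Supt16, a subunit of the histone chaperone FACT, followed at 0.68 and 0.76, Zmym2 followed at 1.31, and Mphosph8, a reader of methylated histone H3 lysine 9, was above at 1.53.

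Early lineage regulators had slopes near 0 on chromosome 14. Of 10 listed genes 4 were members, and their slopes were -0.33 for Bmp4, a signal of the early embryo, -0.19 for Zic5, 0.04 for Zic2 and 0.04 for Otx2, with a median of -0.08. The 7 listed on chromosome 8 had no member, so the list says nothing of that chromosome. Zic2, a zinc finger factor of the primed state and the neural plate, was nearly level with 21.97, 24.6 and 22.4 FPKM in SSCiPSC and 23.2, 23.5 and 23.4 in fiPSC, and Zic5, next to it on the chromosome, had 31.7, 38.2 and 37.4, and 31.3, 33.4 and 34.0. Otx2, a factor of the exit from the naive state, varied more, with 24.5, 21.3 and 17.3 FPKM in SSCiPSC and 34.2, 24.6 and 38.6 in fiPSC. Its slope was -0.57 without SSCiPSC replicate 2 and 0.73 without fiPSC replicate 3, so its class is not settled by 6 libraries. Bmp4 was low, at 2.62 to 7.02 FPKM, and its slope ran from -1.003 to 0.52 with a library left out, that of Zic2 from -0.11 to 0.30 and that of Zic5 from -0.33 to -0.02.

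**Figure D4:**
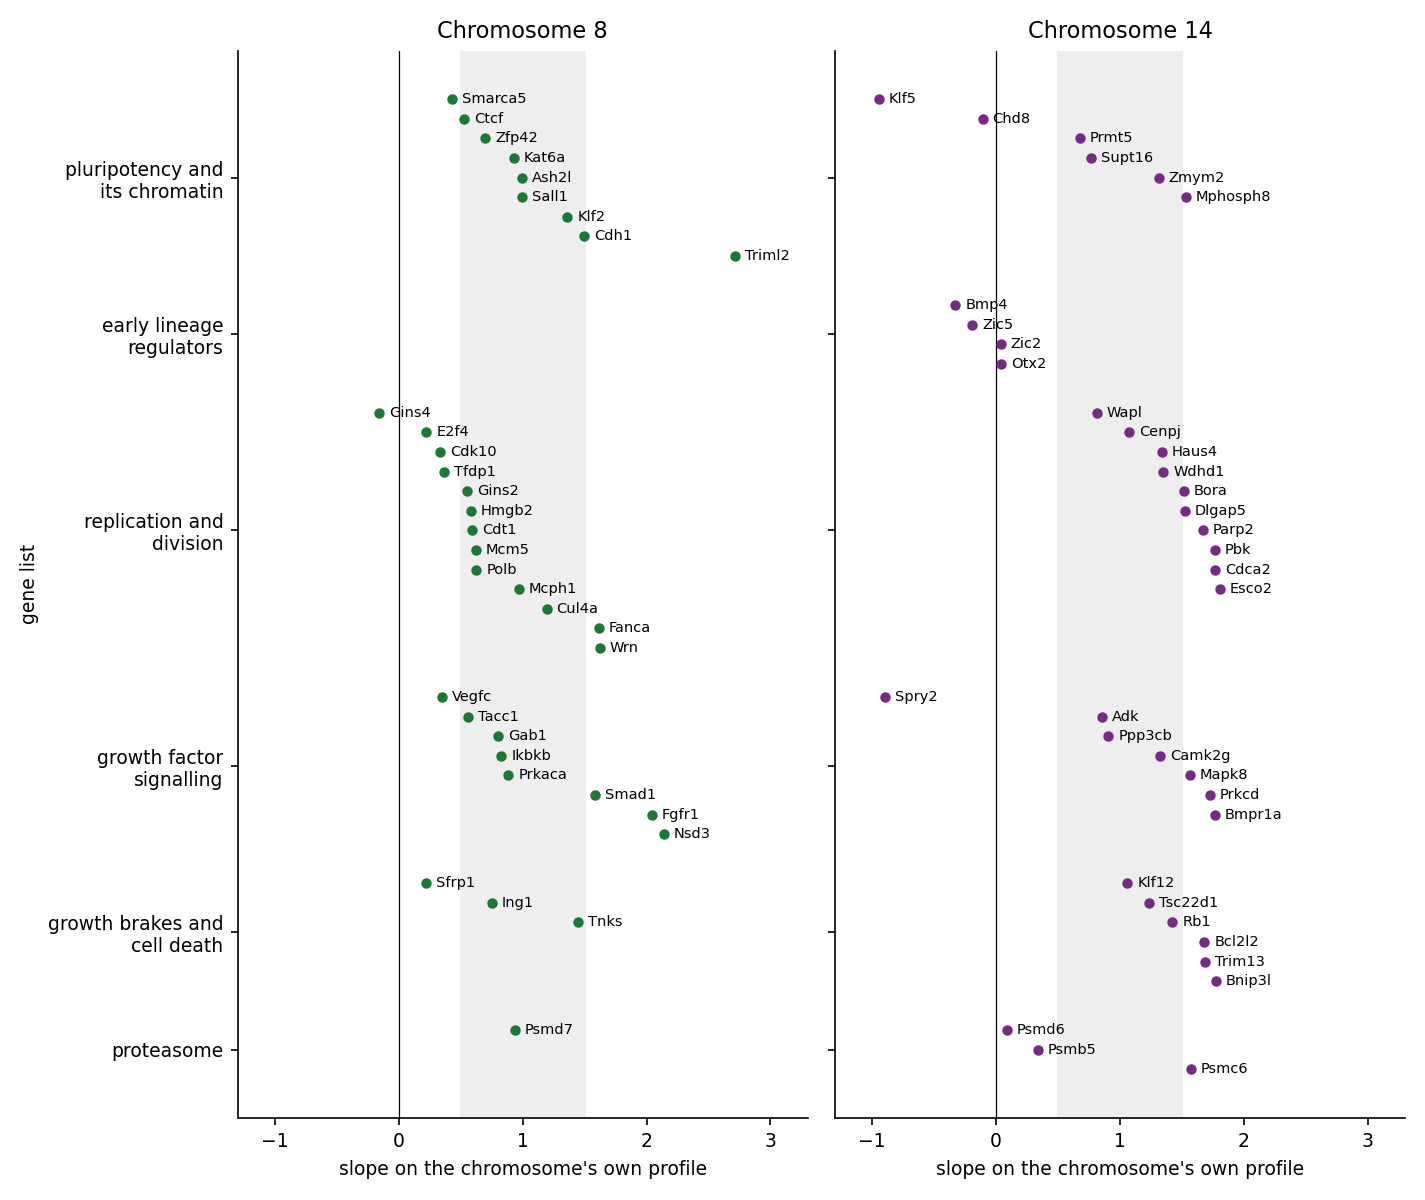
Slope of each listed gene on the profile of its own chromosome (horizontal axis), grouped by gene list (vertical axis), with the following class of 0.5 to 1.5 shaded. All 10 replication and division genes of chromosome 14 lie at 0.81 or more, and the 4 early lineage regulators of that chromosome lie near 0 or below it.

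The replication and division genes had higher slopes on chromosome 14 than on chromosome 8, values that are given side by side and whose difference was not tested. On chromosome 14, 10 of 14 listed genes were members and all 10 had slopes from 0.81 to 1.81, 4 following and 6 above, with a median of 1.52. Esco2, which acetylates cohesin during replication, had 167, 92.6 and 98.4 FPKM in SSCiPSC, 99.996, 120 and 96.7 in fiPSC and 19.4, 25.8 and 15.1 in SSC, a slope of 1.81. SSCiPSC replicate 1 was 1.70 times the next highest member of its group, fiPSC replicate 2 was the highest of its group, and the groups overlapped. Cdca2, a mitotic regulator of protein phosphatase 1, had 85.5, 53.3 and 59.7 FPKM in SSCiPSC and 55.0, 74.9 and 50.4 in fiPSC, a slope of 1.77. Pbk, a mitotic kinase, also had 1.77, Parp2, a sensor of DNA breaks, 1.67, Dlgap5, a spindle protein, 1.52, Bora, an activator of Aurora A, 1.52, and Wdhd1, a replication fork protein, 1.35. Haus4, a subunit of the spindle complex augmin, Cenpj, a centriole protein, and Wapl, which releases cohesin, had 1.34, 1.08 and 0.81. Without SSCiPSC replicate 1 the slope of Esco2 was 1.31, of Bora 1.315, of Pbk 1.47 and of Dlgap5 1.499, all in the following class. In the same fit Parp2 and Cdca2 stayed above at 1.54 and 1.74, and Wapl had 0.56. Division genes of other chromosomes were measured on the same profiles. In a list of 25 mitosis genes chosen after the values were seen, 22 had a locus, and 18 of these had a slope above 0 on the chromosome 14 profile, where 50.5% of all loci of other autosomes were at 0 or less, with a median of 0.40, against -0.26 on the profile of chromosome 8. In 13 replication genes of other chromosomes the medians were 0.04 and -0.33.

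On chromosome 8, 13 of 15 replication and division genes were members, of which 7 followed, 2 were above, 3 were partial and 1 escaped, with a median of 0.59. Mcm5, a subunit of the replicative helicase, had 213, 242 and 242 FPKM in SSCiPSC and 240.5, 249 and 240.4 in fiPSC, a slope of 0.62. In raw FPKM it was lowest in SSCiPSC replicate 1. The centred log2 difference of that library from SSCiPSC replicate 2 was -0.08, beside 0.13 for fiPSC replicate 2 minus replicate 3. Cdt1, which loads that helicase, had 40.1, 72.6 and 71.9 FPKM in SSCiPSC and 62.6, 60.0 and 69.0 in fiPSC. Its slope of 0.59 was -0.20 without SSCiPSC replicate 1 and 1.87 without SSCiPSC replicate 2. Gins4, a subunit of the GINS complex of the same helicase, escaped at -0.16, with 87.0, 87.9 and 78.5 FPKM in SSCiPSC and 72.5, 80.2 and 75.3 in fiPSC, and its slope was 0.0083 without SSCiPSC replicate 1. Its partner Gins2 had 0.55, with 0.41 without SSCiPSC replicate 1 and 0.875 without SSCiPSC replicate 2. E2f4 and Tfdp1, which form transcription factors of the cell cycle, were partial at 0.22 and 0.36, but E2f4 ran from -0.48 without SSCiPSC replicate 1 to 1.41 without SSCiPSC replicate 2, and Tfdp1 from 0.05 to 0.98 in the same fits. Wrn, the Werner helicase, and Fanca, of the Fanconi anaemia pathway, were above at 1.62 and 1.61. They fell in the following class without SSCiPSC replicate 2, at 1.15 and 1.23, and without fiPSC replicate 2, at 1.25 and 1.33.

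Growth factor signalling genes gave 8 members of 16 on chromosome 8 with a median of 0.86 and 7 of 8 on chromosome 14 with a median of 1.32. On chromosome 8 there were 4 following, 3 above and 1 partial. Fgfr1, a receptor for fibroblast growth factors, had 15.6, 19.8 and 24.3 FPKM in SSCiPSC, 26.6, 28.2 and 26.4 in fiPSC and 19.6, 15.4 and 26.9 in SSC, a slope of 2.04. Its neighbour Nsd3, a histone methyltransferase, had 2.14, and all fiPSC values of Fgfr1 lay above all SSCiPSC values, with a limma adjusted p of 0.37 between the groups. Smad1, a carrier of BMP signals, was above at 1.58 but had 1.16 without SSCiPSC replicate 2. Gab1, an adaptor of growth factor receptors, followed at 0.80. On chromosome 14, 3 followed, 3 were above and 1 escaped. Bmpr1a, a BMP receptor, had 46.7, 25.3 and 34.2 FPKM in SSCiPSC and 33.8, 38.3 and 27.7 in fiPSC, a slope of 1.77, and Mapk8, the kinase JNK1, had 1.57. Without SSCiPSC replicate 2 the slope was 1.461 for Bmpr1a, 1.457 for Mapk8 and 1.35 for Prkcd, the other gene above, all within the following class. Spry2, which restrains signalling by receptor tyrosine kinases, was the exception with a slope of -0.90. It had 15.1, 25.9 and 16.7 FPKM in SSCiPSC and 17.4, 17.3 and 21.4 in fiPSC, highest in SSCiPSC replicate 2, the library with the lowest chromosome 14, and its slope stayed between -1.19 and -0.60 with each library left out.

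The list of growth brakes and cell death genes holds genes that act in either direction on cell death. On chromosome 14, 6 of 10 listed were members, 3 following and 3 above, with slopes from 1.06 to 1.77. Rb1, the retinoblastoma protein that holds back entry into S phase, had 6.16, 4.06 and 4.47 FPKM in SSCiPSC, 5.73, 6.62 and 4.39 in fiPSC and 16.98, 23.5 and 21.8 in SSC, a slope of 1.42. Bnip3l, a mitophagy receptor, Trim13, a ubiquitin ligase, and Bcl2l2, which protects from apoptosis, had 1.77, 1.69 and 1.68. The remaining members, Tsc22d1 and Klf12, followed at 1.23 and 1.06. With a library left out Bcl2l2 ran from 1.32 to 2.30, Rb1 from 1.21 to 1.92, Tsc22d1 from 0.71 to 1.55 and Klf12 from 0.66 to 1.29. On chromosome 8, 3 of 6 listed genes were members, with Tnks, a poly-ADP-ribosyltransferase, at 1.45, Ing1, a chromatin reader, at 0.75 (0.39 to 1.36 with a library left out) and Sfrp1, a secreted inhibitor of Wnt, at 0.22. Sfrp1 had 58.9, 35.4 and 53.4 FPKM in SSCiPSC and 28.1, 49.1 and 19.97 in fiPSC, highest in SSCiPSC replicate 1 where its chromosome was low, and its slope ran from -1.09 without fiPSC replicate 2 to 1.24 without SSCiPSC replicate 1. The proteasome subunits among the named genes were Psmd7 (0.94) on chromosome 8 and Psmd6 (0.09), Psmb5 (0.34) and Psmc6 (1.57) on chromosome 14, so their slopes differed. Psmd6 ranged from -0.38 to 0.32, Psmd7 from 0.57 to 1.635 and Psmc6 from 1.02 to 1.90 with a library left out.

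The 5 named genes of each chromosome with the lowest slopes, at a mean of at least 20 FPKM and with no overlapping named member, varied by their own patterns. On chromosome 8 they were Apela (-1.33), Tubb3 (-0.84), the splicing factor gene Sugp1 (-0.61), and Utp4 (-0.31) and Heatr3 (-0.17), which act in ribosome assembly. Apela, a peptide hormone of pluripotent cells that binds the apelin receptor, had 78.7, 54.5 and 44.3 FPKM in SSCiPSC, 42.6, 41.2 and 43.2 in fiPSC and 1.12, 0.284 and 0 in SSC. SSCiPSC replicate 1 held the highest value although its chromosome 8 was low, the fiPSC were level, and Apela was the 1 of these 5 with a slope below 0 in each fit with a library left out, from -2.65 to -0.56. Tubb3, a neuronal tubulin, had 40.2, 91.0 and 62.0 FPKM in SSCiPSC against 50.7 to 51.9 in fiPSC, and its slope turned to 1.18 without SSCiPSC replicate 2. The slopes of Sugp1, Utp4 and Heatr3 turned to 0.78, 0.22 and 0.44 without the same library. On chromosome 14 they were Enox1 (-2.31), Tdh (-1.78), the importin gene Ipo4 (-1.15), Klf5 (-0.95) and Ptprg, a receptor phosphatase (-0.68), and all 5 were below 0 in each fit with a library left out. Tdh ran from -3.04 without SSCiPSC replicate 1 to -1.03 without SSCiPSC replicate 2, and Ptprg was at -0.01 without SSCiPSC replicate 1. Tdh, the threonine dehydrogenase on which mouse pluripotent cells depend, had 141, 285 and 164 FPKM in SSCiPSC, 134, 93.1 and 155 in fiPSC and 0.721, 0.964 and 0.460 in SSC. Enox1, an electron transfer protein of the cell surface, had 16.2, 37.8 and 23.6 FPKM in SSCiPSC and 27.5, 17.03 and 34.4 in fiPSC. Both were highest in SSCiPSC replicate 2 and, within fiPSC, lowest in replicate 2, the reverse of their chromosome, and both share their interval with another locus.

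The 5 highest slopes, under the same limits of level and overlap, belonged to genes that varied more than their chromosome. On chromosome 8 these were Mt1 (4.99), Pik3r2, a regulatory subunit of PI3-kinase (3.66), Hmox1, the haem oxygenase of the stress response (2.99), Cdh3, P-cadherin (2.83), and Syce2, a synaptonemal complex protein (2.77). Mt1 had 132, 54.3 and 150.4 FPKM in SSCiPSC, 235, 219 and 216 in fiPSC and 115, 119 and 132 in SSC. The lowest value was in SSCiPSC replicate 2 and fiPSC replicate 2 was not the highest of its group, while all 3 fiPSC lay above all 3 SSCiPSC. Without SSCiPSC replicate 2, the library with Y-linked values near 0, the slope of Mt1 was 2.55, that of Pik3r2 1.95 and that of Syce2 1.36. Pik3r2 had 93.0, 36.5 and 83.8 FPKM in SSCiPSC and 91.5, 131 and 55.4 in fiPSC, lowest in SSCiPSC replicate 2 and highest in fiPSC replicate 2. SSCiPSC replicate 1, where the chromosome was low, stood above SSCiPSC replicate 3 for Pik3r2. On chromosome 14 they were Clybl, an enzyme of citramalate breakdown in mitochondria (3.48), Ero1l, an oxidase of the endoplasmic reticulum (3.24), Rgcc, a cell cycle regulator (2.87), Nfatc4, a calcium-responsive factor (2.56), and Ndrg2 (2.48), with Rgcc at 1.79 without SSCiPSC replicate 1. Clybl had 71.4, 20.5 and 40.8 FPKM in SSCiPSC and 35.6, 56.4 and 27.8 in fiPSC, a centred log2 difference of 1.86 between SSCiPSC replicates 1 and 2 against a median of 0.44 for the chromosome. It was highest in SSCiPSC replicate 1 and, among fiPSC, in replicate 2.

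**Figure D5:**
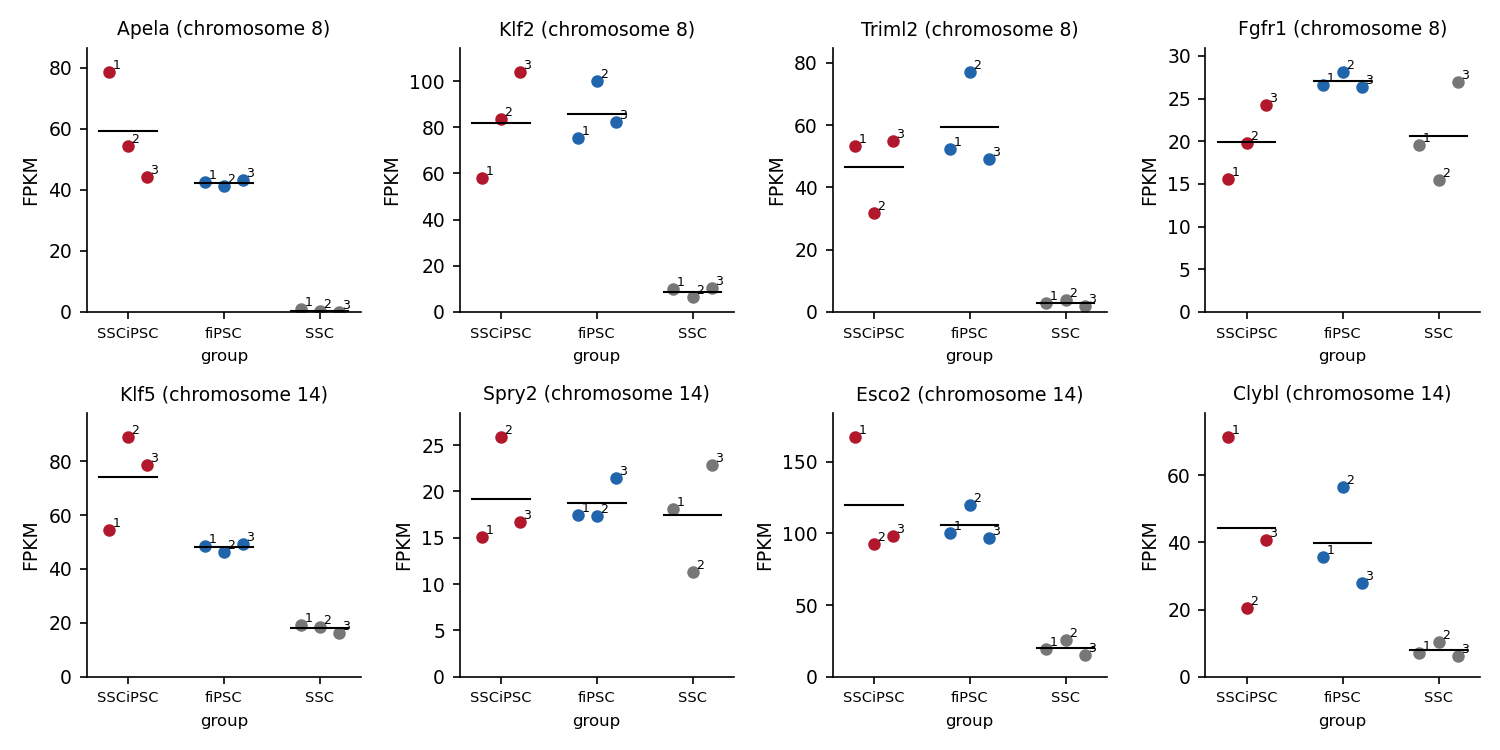
FPKM (vertical axis, from 0) of 8 named genes in SSCiPSC, fiPSC and SSC (horizontal axis), 1 point per library with its replicate number, and lines at the group means. Esco2 and Clybl are highest in SSCiPSC 1 and, within fiPSC, in replicate 2, while Klf5 and Spry2 are highest in SSCiPSC 2.

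Between the groups, the study asks whether iPSC of different origin differ. With limma on log2(FPKM + 1) and Benjamini-Hochberg adjustment over 33948 loci, 8 were higher in fiPSC (0.0236%) and 15 lower (0.0442%) at an adjusted p below 0.05. Without SSCiPSC replicate 2, of 33169 loci 3 were higher and 1 lower. Of the members, 0 of 526 on chromosome 8 and 0 of 335 on chromosome 14 passed, and the same counts held in every alternative run. At an unadjusted p below 0.05 there were 64 on chromosome 8 (12.2%) and 23 on chromosome 14 (6.87%), beside 3988 of all loci (11.7%). The median log2 fold change was 0.11 over chromosome 8 members, -0.06 over chromosome 14 members and -0.09 over the loci of the other autosomes chosen at the same level. This contrast is made of the same libraries as the rule, and the library shifts run across the groups. On chromosome 14 a library of each group is high, while on chromosome 8 both low libraries are SSCiPSC.

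SSC were no part of the rule except that members had to be expressed in iPSC, which favours higher values there. Of 525 chromosome 8 members tested, 247 were higher in SSCiPSC than in SSC (47.0%) and 55 lower (10.5%), and of 335 on chromosome 14, 172 were higher (51.3%) and 41 lower (12.2%), with limma adjusted p below 0.05. Of the members tested, 10 and 11 were below 1 FPKM in all 3 SSC libraries and passed the filter on low values only through SSCiPSC, and without them 237 of 515 and 161 of 324 were higher. Members that reached 1 FPKM in only part of the SSC libraries, such as Zfp42 and Apela, stayed in these counts. Without SSCiPSC replicate 2 there were 211 higher and 42 lower on chromosome 8 and 139 and 29 on chromosome 14, and over all 33041 loci of that fit there were 4955 and 6717. Loci of the other autosomes chosen at the same level gave 46.6% and 15.5%, and all 36544 loci tested gave 26.2% and 24.1%, so the counts of the members stood close to their background. With quantile normalization the split was 213 against 89 on chromosome 8 and 144 against 57 on chromosome 14, and with each library set to the same median of these chromosomes it was 173 against 117 and 112 against 85. Over all 36544 loci the same settings gave 9061 against 8739 and 9306 against 9216. In the pluripotency list Zfp42, with 2 SSC libraries above 1 FPKM, met the filter on low values through SSCiPSC and its test is not given. Of the other 8 members of chromosome 8, 6 rose and Kat6a fell, and 4 of 6 of chromosome 14 rose. Klf2 rose by 3.07 on the log2(FPKM + 1) scale (standard error 0.27, limma adjusted p = 0.00029) and Klf5 by 1.96 (0.21, adjusted p = 0.00053). Of the replication and division genes 9 of 13 on chromosome 8 rose, and on chromosome 14 8 of 10 rose and Cenpj fell. These calls held with each library left out, and so did those of the proteasome subunits, of which 4 of 4 rose. Of the growth factor signalling genes Gab1 and Vegfc rose and Tacc1 and Nsd3 fell on chromosome 8, and on chromosome 14 Adk rose and Prkcd fell, with the calls of Vegfc, Adk and Prkcd lost when a library was left out. Of the growth brakes and cell death genes Rb1 and Bcl2l2 fell and Trim13, Ing1 and Sfrp1 rose. Of the lineage regulators, Zic5 was at 0 in all 3 SSC libraries, Otx2 at 0.558, 0 and 0 FPKM and Zic2 at 0.0493, 0.464 and 1.02, so they met the filter through SSCiPSC and their tests are not given. Of the genes with low slopes in iPSC, Tdh and Apela, at or near 0 in SSC, are left without a test for the same reason, and Spry2 differed by 0.15 (standard error 0.31, adjusted p = 0.72 with limma). SSC libraries were several times shallower, and whether an iPSC library differs from SSC in chromosome number was not tested.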

How the data were processed

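RNA-seq values of 9 mouse libraries were used. Per the labels, the authors trimmed reads with Trimmomatic 0.32, aligned them with TopHat2 2.0.9 and Bowtie2 2.1.0, and assembled loci with Cufflinks 2.2.1 and Cuffdiff from stranded libraries. The deposited values are FPKM, although the header of the table writes RPKM, with 1 value per locus and library. The labels name mm9, but 96.9% of members lie on a coding gene of the same strand in GRCm38, against 36.8% and 40.1% after a move of 1000000 bp, so GENCODE vM21 on GRCm38 gave the names (at least 50% reciprocal overlap on the same strand). Strand was read from the blocks of the table, where positions fall by over 20 Mb. Of 54914 loci, 1 with a blank value was left out. The authors' methods do not state a scaling between libraries.

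Values were taken as log2(FPKM + 1) and centred on the 7886 loci with a strand and at least 5 FPKM of the 17 other autosomes. Pair differences and slopes were described without a test. Groups were compared with limma 3.58.1 in R 4.3.3 (eBayes with a trend) over loci with at least 1 FPKM in 3 of the 6 libraries, and the scripts used Python 3.11.15, numpy 2.4.6 and pandas 2.3.3. The code for slopes and limma was run on simulated data. The changes planted for limma were far larger than the chromosome shifts described here, so detection of changes of that size was not measured. FPKM are not counts, so no count model was used, and depth was estimated from loci of 600 to 6000 bp. Precision is limited by 3 libraries per group and, for SSC, by depth.

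The named genes are the members of 5 gene lists (66 of 104 genes on these chromosomes) and the proteasome members, the 5 lowest and 5 highest slopes per chromosome at a mean of at least 20 FPKM without overlap, the 3 most abundant per chromosome, and any past the threshold between iPSC groups (0). Part of what the rule names is not reported here. Members, lists and tests were chosen with earlier results of these data known. Lists of other chromosomes and SSC genes were chosen after the values were seen.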

Additional observations from a re-analysis of the deposited data

How the results depend on the processing

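Of 108 alternative values of the pair differences, 72 moved by less than the spread over the other autosomes and 36 by more. All kept their sign except chromosome 8 between SSCiPSC replicates 1 and 2, which was within the other autosomes. Without centring, chromosome 8 gave -0.028 for SSCiPSC 1 minus 2, -0.17 for 2 minus 3, -0.072 for fiPSC 1 minus 2, 0.052 for 1 minus 3 and 0.13 for 2 minus 3, and chromosome 14 gave 0.34, -0.019, -0.18, 0.063 and 0.29. Loci without a strand gave 0.0086, -0.15, -0.085, 0.041 and 0.17 on chromosome 8 and 0.31, -0.072, -0.20, 0.050 and 0.29 on chromosome 14, with 0.17 for SSCiPSC 1 minus 3. Loci with a strand and 1 to 5 FPKM, chosen after seeing the data, gave -0.11 for SSCiPSC 1 minus 3, -0.19 for 2 minus 3, -0.070 for fiPSC 1 minus 2 and 0.18 for 2 minus 3 on chromosome 8, and 0.33 and 0.22 for SSCiPSC 1 minus 2 and 1 minus 3, -0.069 for fiPSC 1 minus 2 and 0.24 for 2 minus 3 on chromosome 14. For fiPSC 1 minus 2, chromosome 14 gave -0.24 with a pseudocount of 0.1, -0.21 and -0.25 with means of at least 1 and 20 FPKM and -0.25 with quantile normalization, which gave -0.14 on chromosome 8. For fiPSC 2 minus 3 on chromosome 14, a mean of at least 1 FPKM gave 0.35 and means in place of medians 0.34. The cause was not tested.

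On chromosome 8 the following loci were 168 of 277 (60.6%) at a mean of at least 20 FPKM, 130 of 274 (47.4%) for intervals no other locus has and 117 of 396 (29.5%) without a strand, and on chromosome 14 they were 92 of 187 (49.2%), 89 of 176 (50.6%) and 91 of 272 (33.5%). The share thus rose in the first set of chromosome 8 and was lower without a strand. Escaping loci in the same sets were 9 (3.25%), 16 (5.84%) and 119 (30.1%) on chromosome 8 and 24 (12.8%), 20 (11.4%) and 78 (28.7%) on chromosome 14. At a mean of at least 1 FPKM 86 of 694 (12.4%) and 71 of 441 (16.1%) escaped, and with 1 locus per gene and the chromosome medians taken anew over these loci 26 of 394 (6.60%) and 25 of 256 (9.77%). Without centring 81 escaped on chromosome 8. With each iPSC library left out the escaping members ranged from 44 to 74 on chromosome 8, the highest without SSCiPSC replicate 1, and from 33 to 46 on chromosome 14.

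Loci past the threshold between fiPSC and SSCiPSC numbered 10 with no filter and with a mean of at least 5 FPKM, 11 with all 9 libraries, and 2 to 10 with each library left out (2 without SSCiPSC replicate 3), where fewer samples were fitted. For SSCiPSC against SSC they numbered 10070 with a mean of at least 5 FPKM, where fewer loci were tested, and 11357 to 13901 with each library left out (the lowest without SSCiPSC replicate 3). Replicate numbers were not used as pairs in the main fits. Same-numbered SSCiPSC and fiPSC libraries had correlations of -0.17, -0.56 and -0.27 over the 7886 loci of other autosomes. The values correlated are deviations from group means, which makes some pairs negative in any design, so a shared batch cannot be judged from them. With the replicate number as a block, 6 loci passed between fiPSC and SSCiPSC and 16926 between SSCiPSC and SSC, of which 284 and 194 were members. The shallow SSC libraries limit the calls of low genes.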

Other observations

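Genes of the naive pluripotent state on other chromosomes were spread on both sides of 0 on both profiles. Of 20 such genes, chosen after the values were seen, 14 had a locus, with medians of -0.65 on the chromosome 8 profile and -0.50 on that of chromosome 14, and 9 of 14 were at 0 or less on each, beside 53.1% and 50.5% of the loci of other autosomes. Deviations over loci of other autosomes ran together in SSCiPSC replicate 1 and fiPSC replicate 2 (correlation 0.42 over 7886 loci, which share their libraries) and in SSCiPSC replicate 2 and fiPSC replicate 3 (0.50), and the other 7 pairs of an SSCiPSC and a fiPSC library gave -0.56 to 0.21. Deviations are from group means, which ties the 3 libraries of a group to each other. Y-linked values in SSCiPSC replicate 2 were 0.223 FPKM for Ddx3y, 0.0731 for Uty and 0 for Kdm5d and Zfy1, where fiPSC replicate 2 had 26.5, 17.1, 5.53 and 4.01.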
